A study of Mus musculus with 12 samples.

Results

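The 10 genes described here are Nrf2 (gene symbol Nfe2l2), a transcription factor of the oxidative stress response, 6 genes of the glutathione, thioredoxin, and quinone defenses (Slc7a11, Gclc, Gclm, Txnrd1, Srxn1, and Nqo1), the heme-degrading enzyme gene Hmox1, and the iron genes Fth1 and Slc40a1. They were taken by symbol from a count table of 35303 gene symbols, and all 10 passed the filter on low counts that left 17676 symbols for testing. Bulk RNA-seq compared 3 groups of myeloid-derived suppressor cells (MDSCs), with 4 libraries per group that the labels call biological replicates. MDSCs are immunosuppressive myeloid cells. They were grown for 3 days from the bone marrow of female wild-type C57BL/6 mice, 6 to 10 weeks old, with interleukin-6 (IL-6) and granulocyte-macrophage colony-stimulating factor, and were purified as CD11b+Gr1+ cells. Unmodified cells are called MDSC. Cells with blank nanoparticles (NPs) of the polymer PLGA clicked to azido groups on their surface are called MDSC-NP-Blk, and cells that carry the same kind of particle loaded with rapamycin, an inhibitor of the kinase mTOR, are called CITED. All 3 groups were kept for 24 hours with IL-6 at 40 ng/ml. The sources used here do not say whether unmodified cells also received the azido sugar and the conjugation steps, so those steps and the particle cannot be told apart in a comparison with MDSC. The cultures are mixtures of monocytic and granulocytic cells, and the tissue named in the labels is the central nervous system, whereas the methods describe cultured marrow cells.

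Nrf2 is held at a low level by Keap1, which presents it for degradation. Oxidants and electrophiles disable Keap1, and Nrf2 then pairs with a small Maf protein at antioxidant response elements (AREs) and raises the transcription of genes for glutathione, thioredoxin, and quinone defense. It also acts on ferritin, heme oxygenase, and the iron exporter ferroportin, which links oxidant defense to iron handling. Ferritin and ferroportin mRNAs carry a second layer of control, an iron-responsive element (IRE) in the 5′ leader at which iron regulatory proteins block translation when iron is scarce. The mRNA levels measured here do not report that step. Myeloid cells face both demands, since they make oxidants and recycle iron.

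The letters that carry these controls were looked up in the reference. The ARE core was searched as TGACNNNGC on both strands of the 1000 bases before the start of each gene's canonical transcript (GENCODE release 39, GRCm39). Its first 4 letters are shared with the AP-1 motif TGACTCA. It was found in 4 of 10 of these genes, whereas 28.2% of 21746 promoters held it. The matches are printed to show the element as it stands in these promoters, and they did not sort the genes by their change. Of the 7 genes that rose in CITED against both other groups, Gclm, Slc7a11, and Txnrd1 held a match and Fth1, Nqo1, Srxn1, and Hmox1 held none in this window, whereas Nfe2l2 held one and did not rise against MDSC-NP-Blk. Each is written along the strand that bears it, with the core in capitals. Numbers in parentheses give the position and the distance to the transcript start in bases.
Nfe2l2 (chr2:75535227-75535259, minus strand, 262): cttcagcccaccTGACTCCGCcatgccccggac
Gclm (chr3:122039060-122039092, minus strand, 54): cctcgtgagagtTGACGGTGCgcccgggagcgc
Slc7a11 (chr3:50398913-50398945, plus strand, 870): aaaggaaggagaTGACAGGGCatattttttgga
Txnrd1, distal (chr10:82694630-82694662, minus strand, 371): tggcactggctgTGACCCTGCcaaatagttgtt
Txnrd1, proximal (chr10:82694936-82694968, minus strand, 65): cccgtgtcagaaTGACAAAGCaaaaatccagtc
A match is a string of letters and not a measured binding site. Elements farther from the start, and cores with another letter at a fixed position, were not searched. A gene without a match here may therefore still hold an element.

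The loop of the IRE was searched as CNNNNNCAGTGN in the first 200 bases of each transcript, on the transcript strand. It occurred in 7.6% of 21697 transcripts, and among the 10 genes in Fth1 and Slc40a1. It is shown since these are the pair whose mRNAs moved in opposite directions below. Capitals mark the loop.
Fth1 (motif starts at base 93 of a 5′ UTR of 224 bases): cctgcttcaaCAGTGCttgaacgga
Slc40a1 (motif starts at base 172 of a 5′ UTR of 395 bases): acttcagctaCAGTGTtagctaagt

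Counts per gene were deposited as whole numbers by the authors, 20604809 to 37855478 per library, so that the floor of 3 counts was 7.92e-06% to 1.46e-05% of a library. Floors cover counting error only. Levels are given as normalized counts, that is, counts scaled by library size and the TMM factor (trimmed mean of M values) to the mean library. Differences are log2 fold changes from edgeR's quasi-likelihood test on all 12 libraries, with p-values adjusted over all 17676 genes. A gene is said to rise or fall at an adjusted p under 0.05, and is called differentially expressed if its absolute log2 fold change also reaches 1. All 8 MDSC markers were detected in every group, with summed levels of 27600 to 30700 CPM (counts scaled to the library size) in MDSC, 31100 to 32800 with the blank particle, and 23800 to 26800 in CITED. S100a8 and S100a9 made up most of these sums. CPM of markers carry no TMM factor, unlike the fits and the CPM per kilobase given below. In the fits, S100a8 and S100a9 had log2 fold changes of −0.0047 and 0.0073 in CITED against MDSC (adjusted p = 0.961 and 0.932). In MDSC-NP-Blk against MDSC they rose by 0.33 and 0.45 (adjusted p = 4.96e-07 and 4.28e-10). Other markers moved apart: Csf3r, the receptor of granulocyte colony-stimulating factor, was at 198, 423, and 481 CPM in this order of groups, Ly6c2, a marker of monocytic cells, at 1180, 1290, and 766, and the granulocyte factor gene Cebpe at 134, 134, and 87.0. In the fits against MDSC, Cebpe rose by 0.26 in MDSC-NP-Blk and fell by 0.35 in CITED (adjusted p = 3.09e-04 and 4.52e-06). Ly6c2 rose by 0.39 and fell by 0.35 in this order (adjusted p = 5.26e-09 and 3.93e-08). Csf3r rose by 1.34 and 1.54 (adjusted p = 9.40e-20 and 6.37e-22). Ly6g, a marker of granulocytic cells, rose by 0.23 and 0.22 (adjusted p = 9.18e-04 and 0.00136). Itgam rose by 0.24 and 0.43 (adjusted p = 3.15e-05 and 3.68e-10). Ly6c1, at 1.52, 1.60, and 0.599 CPM, fell by 1.04 in CITED (adjusted p = 0.0291). Of the 8 markers, 7 rose and 0 fell in MDSC-NP-Blk, beside 19.9% and 18.6% of all genes. In CITED 3 rose and 3 fell, beside 22.2% each. The part of a shift between monocytic and granulocytic cells in the values below was not tested. The MDSC-NP-Blk libraries stood apart in pairs, replicates 1 and 4 against replicates 2 and 3. The chi-square per degree of freedom over genes was 6.01 and 6.15 within these pairs and 17.6 to 24.2 across them, whereas it was 4.81 to 10.3 between libraries of the other groups. Values that rest on this are given with and without each pair. Since these are bulk samples, fewer cells of a type and less RNA per cell cannot be told apart.

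The 10 genes were chosen with earlier results of these data known. In CITED against MDSC, 8 of the 10 genes rose and 2 fell, beside 22.2% of all genes tested that rose and 22.2% that fell. The 17676 genes tested include many at low counts. With a stricter filter that left 12379 genes, 3968 rose and 3877 fell in this comparison. It gave 3556 and 3340 in MDSC-NP-Blk against MDSC, and 1958 and 2088 in CITED against MDSC-NP-Blk. Among the 10, the genes that rose in CITED against MDSC were Fth1, Nqo1, Slc7a11, Srxn1, Gclm, Txnrd1, Nfe2l2, and Hmox1, and those that fell were Gclc and Slc40a1. Of these, 3 were differentially expressed upward (Fth1, Nqo1, and Slc7a11), beside 3.28% of all genes, and 0 downward, beside 6.7%. With library sizes alone as the scale the first count was 2, since Slc7a11 then had a log2 fold change of 0.87. In MDSC-NP-Blk against MDSC, 5 rose (Fth1, Nqo1, Slc7a11, Nfe2l2, and Srxn1), beside 19.9%, and Gclc and Slc40a1 fell, 2 genes beside 18.6%. Here 1 gene, Fth1, was differentially expressed upward, beside 1.88% of all genes, and 0 downward, beside 2.86%. In CITED against MDSC-NP-Blk, which carry a particle alike and differ by the rapamycin load, 7 rose, beside 10.5%, and 1, Slc40a1, fell, beside 11.4%. None was differentially expressed in that comparison, 0 in either direction, beside 0.651% upward and 2.0% downward over all genes, and the largest log2 fold change was 0.63. DESeq2 called 3, 1, and 0 of the genes differentially expressed in the 3 comparisons in this order. The median log2 fold change of the 10 genes was 0.539 in CITED against MDSC, where all genes had a median of −0.0519. It was 0.0888 beside −0.0274 in MDSC-NP-Blk against MDSC and 0.512 beside 0.0 in CITED against MDSC-NP-Blk. The first and second comparisons share the MDSC libraries, and the second and the third share the MDSC-NP-Blk libraries, so their values are set side by side and are not independent.

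**Figure D1:**
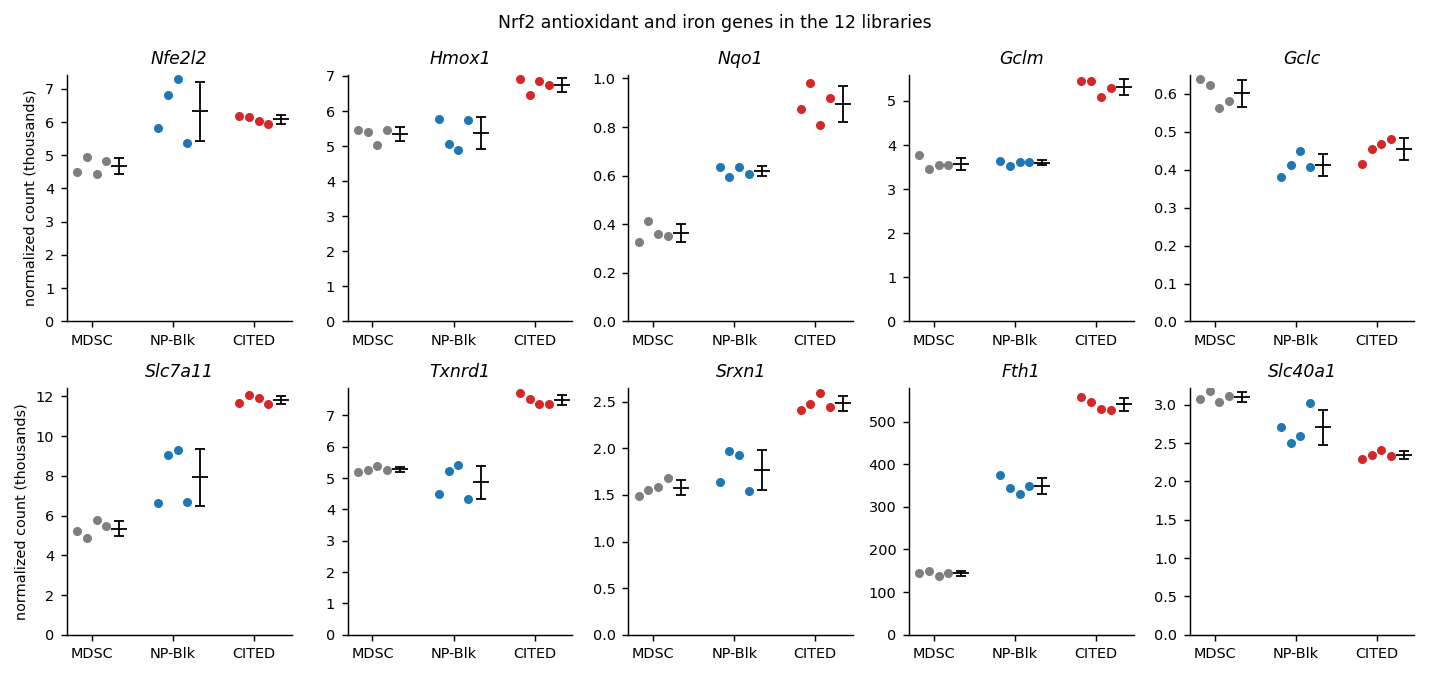
Normalized counts (vertical axis from 0, in units of 1000) of the 10 genes in each of the 12 libraries, with gray points for MDSC, blue for MDSC-NP-Blk, and red for CITED, and bars for the mean ± SD of 4 libraries. Fth1, Nqo1, and Slc7a11 step up from MDSC to MDSC-NP-Blk to CITED without overlap, Gclm, Txnrd1, and Hmox1 lie higher in CITED than in the other groups, and Gclc and Slc40a1 lie lower than in MDSC in both particle groups.

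**Figure D2:**
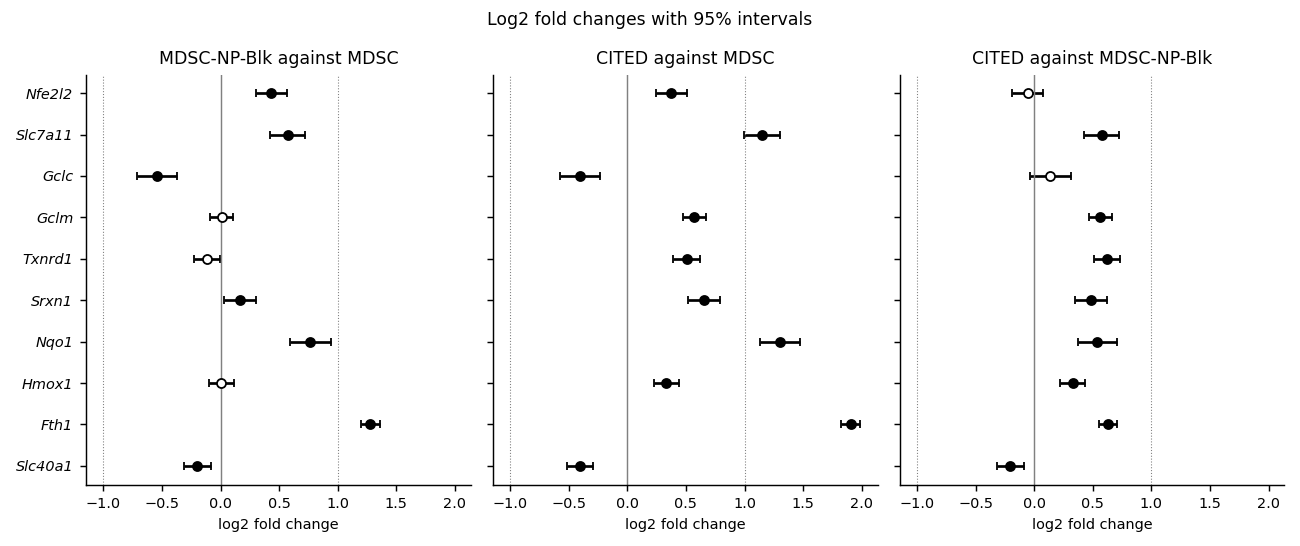
Log2 fold change (horizontal axis) of each gene in the 3 comparisons, with bars for the 95% interval from edgeR's quasi-likelihood fit. Filled points have an adjusted p under 0.05, open points do not, and dotted lines mark an absolute log2 fold change of 1. Fth1 has the largest change in both comparisons with MDSC, at 1.28 and 1.91.

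Nfe2l2 encodes Nrf2 itself and lies on chromosome 2 (75504739 to 75534985, minus strand). Its normalized counts were 4502, 4953, 4443, and 4826 in MDSC replicates 1 to 4, 5810, 6800, 7285, and 5371 in those of MDSC-NP-Blk, and 6191, 6164, 6018, and 5931 in those of CITED. Every library of either particle group lay above every MDSC library, while the MDSC-NP-Blk values spanned a range that enclosed all CITED values. The transcript rose in MDSC-NP-Blk, with a log2 fold change of 0.43 (SE 0.0642, adjusted p = 9.39e-07), and in CITED, with 0.38 (SE 0.0643, adjusted p = 7.13e-06). Between CITED and MDSC-NP-Blk the difference was −0.06, with a 95% interval from −0.19 to 0.07 (adjusted p = 0.591). With library sizes alone as the scale, which moves the median of all genes to −0.323 in CITED against MDSC, its value there was 0.10 and did not pass (adjusted p = 0.197).

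Slc7a11 is the cystine transporter subunit of system xc-, which brings in the precursor of glutathione (chromosome 3, 49846975 to 50398070, minus strand). The MDSC libraries held 5201, 4879, 5783, and 5491 normalized counts, those of MDSC-NP-Blk held 6650, 9045, 9311, and 6690, and those of CITED held 11668, 12075, 11904, and 11634. The 3 groups did not overlap, and CITED held the narrowest spread, with a coefficient of variation of 1.76% against 18.3% in MDSC-NP-Blk. The transcript rose 2.21-fold in CITED against MDSC (log2 fold change 1.15, SE 0.0756, adjusted p = 6.16e-15). A correction for transcript length moved this value to 1.54 (adjusted p = 1.17e-23). Against MDSC-NP-Blk, CITED was higher by 0.58 (SE 0.0747, adjusted p = 2.22e-07), and MDSC-NP-Blk rose over MDSC by 0.57 (SE 0.0751, adjusted p = 1.04e-07). Both values changed with the pair of MDSC-NP-Blk libraries used, as given below. Its partner in the transporter, the heavy chain gene Slc3a2, rose in CITED against MDSC by 1.20 (adjusted p = 3.94e-21), from 4316 ± 62.8 to 9911 ± 264 normalized counts (SD, n = 4).

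Glutamate-cysteine ligase makes the first and rate-limiting step of glutathione synthesis, with Gclc as its catalytic subunit and Gclm as the modifier subunit that raises its efficiency. The genes for these subunits moved in opposite directions in CITED against MDSC. Gclm (chromosome 3, 122039126 to 122065061, plus strand) held normalized counts of 3772, 3449, 3543, and 3544 in the MDSC libraries, 3636, 3520, 3623, and 3622 in those of MDSC-NP-Blk, and 5443, 5465, 5082, and 5294 in those of CITED. All 4 CITED libraries lay above all others, while MDSC and MDSC-NP-Blk overlapped. Gclm rose by 0.57 against MDSC (SE 0.0482, adjusted p = 3.01e-12) and by 0.56 against MDSC-NP-Blk (SE 0.0483, adjusted p = 3.15e-11). Between MDSC-NP-Blk and MDSC its log2 fold change was 0.01, with a 95% interval from −0.09 to 0.11 (adjusted p = 0.923). A correction for transcript length moved that value to 0.20, which passed (adjusted p = 0.000605). The same correction moved the value in CITED against MDSC to 0.84 (adjusted p = 1.34e-18).

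Gclc (chromosome 9, 77661797 to 77701770, plus strand) held normalized counts of 638, 623, 563, and 582 in the MDSC libraries, 381, 413, 450, and 406 in those of MDSC-NP-Blk, and 414, 455, 468, and 480 in those of CITED. Every library with a particle lay below every MDSC library, and the particle groups overlapped. Gclc fell by 0.54 in MDSC-NP-Blk (SE 0.0851, adjusted p = 2.56e-06) and by 0.40 in CITED (SE 0.085, adjusted p = 1.48e-04). Between the particle groups the log2 fold change was 0.14, with a 95% interval from −0.04 to 0.32 (adjusted p = 0.294). The catalytic subunit was the less abundant transcript of the pair, at 7.08 CPM per kilobase against 22.9 for Gclm in MDSC.

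A ratio of counts within a library does not depend on how libraries are scaled. It can still carry an effect of transcript length, for which the ratios were not corrected. In CITED against MDSC, the length correction moved Gclc from −0.40 to −0.33, Gclm from 0.57 to 0.84, and Slc7a11 from 1.15 to 1.54. Counts of Gclc over Gclm were 0.169, 0.181, 0.159, and 0.164 in MDSC, 0.105, 0.117, 0.124, and 0.112 with the blank particle, and 0.076, 0.0832, 0.0922, and 0.0906 in CITED. The ratio thus stepped down across the groups with no overlap, from a mean of 0.168 ± 0.00935 to 0.115 ± 0.00821 and 0.0855 ± 0.00743 (SD, n = 4). Each of the 3 differences had p = 0.0286 in a two-sided exact permutation test, the smallest p that 4 against 4 libraries allow, and an adjusted p = 0.0429 over the 9 ratio tests. Counts of Slc7a11 over Slc3a2 averaged 1.24 ± 0.0962 in MDSC, 1.12 ± 0.181 with the blank particle, and 1.19 ± 0.0226 in CITED, and no difference passed (exact permutation p = 0.286 to 0.457). The difference in mean log2 ratio between CITED and MDSC was −0.978 for Gclc over Gclm and −0.0496 for Slc7a11 over Slc3a2. The gene pairs for the ratios were chosen after their values were seen, so the smallest p only restates a lack of overlap already seen.

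**Figure D3:**
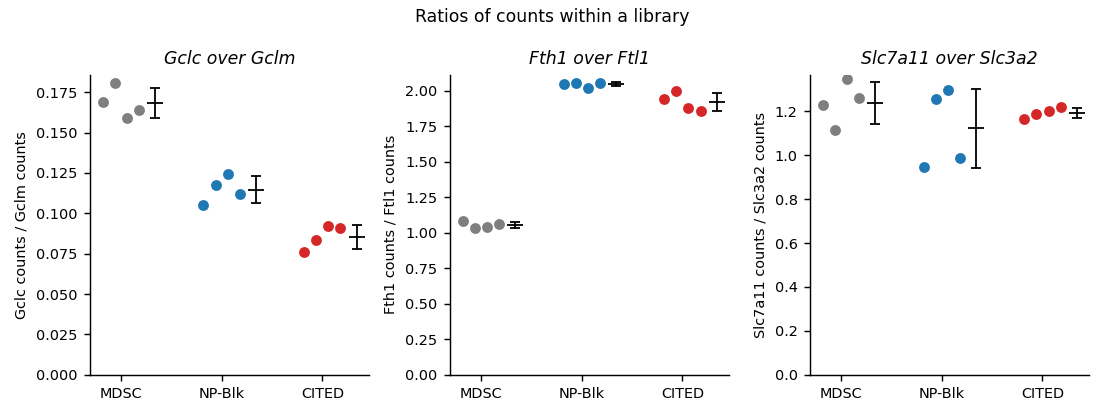
Ratios of raw counts within each library (vertical axes from 0) for Gclc over Gclm, Fth1 over Ftl1, and Slc7a11 over Slc3a2, with points for libraries and bars for the mean ± SD of 4 libraries. Gclc over Gclm steps down from 0.168 to 0.115 and 0.0855, Fth1 over Ftl1 steps up from 1.06 to 2.05 with 1.92 in CITED, and Slc7a11 over Slc3a2 overlaps between all groups.

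Txnrd1, cytosolic thioredoxin reductase, returns thioredoxin to its reduced form with electrons from NADPH (chromosome 10, 82669785 to 82733546, plus strand). Its normalized counts in MDSC were 5193, 5270, 5386, and 5256, those in MDSC-NP-Blk were 4499, 5216, 5412, and 4337, and those in CITED were 7711, 7535, 7354, and 7352. CITED lay above all other libraries, while MDSC-NP-Blk straddled the MDSC range. Txnrd1 rose by 0.50 against MDSC (SE 0.0558, adjusted p = 1.75e-09) and by 0.62 against MDSC-NP-Blk (SE 0.056, adjusted p = 1.00e-10). MDSC-NP-Blk differed from MDSC by −0.12, with a 95% interval from −0.23 to −0.00184 and an adjusted p = 0.107 that missed the threshold.

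Srxn1, sulfiredoxin, repairs peroxiredoxins whose catalytic cysteine has been overoxidized (chromosome 2, 151947436 to 151957687, plus strand). The MDSC libraries held 1490, 1555, 1581, and 1684 normalized counts, those of MDSC-NP-Blk held 1636, 1967, 1932, and 1539, and those of CITED held 2413, 2479, 2594, and 2445. CITED again lay above every other library. Srxn1 rose by 0.65 against MDSC (SE 0.0672, adjusted p = 3.27e-10) and by 0.49 against MDSC-NP-Blk (SE 0.0671, adjusted p = 6.84e-07). With a length correction the value in CITED against MDSC was 0.96 (adjusted p = 2.1e-17). The rise in MDSC-NP-Blk was 0.17 (SE 0.0674, adjusted p = 0.0461), with libraries that overlapped those of MDSC. A length correction moved that value to 0.39 (adjusted p = 6.91e-07). The call was lost with DESeq2 (0.16, adjusted p = 0.0664), with RLE factors (0.16, adjusted p = 0.0622), in a fit to the 8 libraries compared (0.15, adjusted p = 0.118), and when any of 9 libraries was left out: MDSC replicates 1 to 3, MDSC-NP-Blk replicates 2 and 3, and each of the CITED libraries (adjusted p = 0.0529 to 0.236).

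Nqo1 encodes a quinone reductase that spares cells the redox cycling of quinones (chromosome 8, 108113835 to 108129934, minus strand). Its normalized counts in MDSC were 326, 414, 360, and 352, those in MDSC-NP-Blk were 634, 594, 636, and 606, and those in CITED were 873, 983, 807, and 920. The 3 groups did not overlap. Nqo1 rose 2.47-fold in CITED against MDSC (log2 fold change 1.30, SE 0.0848, adjusted p = 4.41e-15), by 0.77 in MDSC-NP-Blk against MDSC (SE 0.0855, adjusted p = 3.68e-09), and by 0.54 in CITED against MDSC-NP-Blk (SE 0.0824, adjusted p = 4.40e-06). It was the least abundant of the 10 transcripts in MDSC, at 5.52 CPM per kilobase.

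Hmox1, heme oxygenase 1, opens the heme ring and releases its iron (chromosome 8, 75820241 to 75827217, plus strand). The MDSC libraries held 5458, 5405, 5045, and 5469 normalized counts, those of MDSC-NP-Blk held 5777, 5069, 4901, and 5731, and those of CITED held 6901, 6449, 6857, and 6732. CITED lay above the others, which overlapped. Hmox1 rose 1.26-fold in CITED against MDSC (log2 fold change 0.33, SE 0.0532, adjusted p = 2.28e-06) and by 0.33 against MDSC-NP-Blk (SE 0.0533, adjusted p = 1.18e-05). Between MDSC-NP-Blk and MDSC the log2 fold change was 0.01, with a 95% interval from −0.10 to 0.11 (adjusted p = 0.961). The value against MDSC depended on scaling: in CITED it was 0.20 with a length correction (adjusted p = 0.000221) and 0.06 with library sizes alone (adjusted p = 0.36). In MDSC-NP-Blk the length correction gave −0.13 (adjusted p = 0.016), and library sizes alone, under which the median of all genes was −0.286, gave −0.26 (adjusted p = 9.83e-05).

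Fth1 encodes the ferritin heavy chain, the ferroxidase subunit of the iron storage shell (chromosome 19, 9957911 to 9962462, plus strand), and it was by far the most abundant of these transcripts. Its normalized counts in MDSC were 144177, 150642, 137976, and 143891, those in MDSC-NP-Blk were 375240, 343418, 330363, and 349706, and those in CITED were 558176, 546528, 528715, and 527820. This corresponded to 0.642% to 0.683% of all counts of a library in MDSC, 1.27% to 1.43% with the blank particle, and 2.01% to 2.09% in CITED. The groups did not overlap, and the gaps between them were wider than the spread within any group. Fth1 rose 2.42-fold in MDSC-NP-Blk against MDSC (log2 fold change 1.28, SE 0.0387, adjusted p = 4.10e-23) and 3.75-fold in CITED (1.91, SE 0.0394, adjusted p = 1.54e-28). A correction for transcript length moved the value in CITED against MDSC to 1.73 (adjusted p = 3.22e-34). CITED exceeded MDSC-NP-Blk by 0.63 (SE 0.0382, adjusted p = 8.16e-15). Of the 31-base words of its transcript, 12.9% also occur in 3 ferritin pseudogenes, which held 38, 29, and 1 counts over the 12 libraries beside 3956481 for Fth1.

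The ferritin light chain gene Ftl1, which supports nucleation of the iron core, rose as well, from 136751 ± 6202 normalized counts in MDSC to 170728 ± 8530 with the blank particle and 281382 ± 6148 in CITED (SD, n = 4). Counts of Fth1 over Ftl1 were 1.08, 1.03, 1.04, and 1.06 in MDSC, 2.05, 2.06, 2.02, and 2.06 with the blank particle, and 1.94, 2.00, 1.88, and 1.86 in CITED. The step between MDSC and either particle group was far wider than the spread within a group, and the particle groups lay side by side without overlap. The 3 differences each had p = 0.0286 in the exact permutation test, adjusted p = 0.0429. This is the smallest p that 4 against 4 libraries allow. The pair was chosen after its values were seen, so the p-value only restates a lack of overlap already seen. In mean log2 ratio the differences were 0.957 from MDSC to MDSC-NP-Blk, 0.864 from MDSC to CITED, and −0.093 from MDSC-NP-Blk to CITED. Heavy and light chain transcripts therefore changed unequally in MDSC-NP-Blk, where Fth1 rose by 1.28 and Ftl1 by 0.32 (adjusted p = 2.96e-08), and by 0.63 and 0.72 between CITED and MDSC-NP-Blk.

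Slc40a1, ferroportin, is the known cellular iron exporter (chromosome 1, 45947211 to 45965683, minus strand). Its normalized counts were 3077, 3177, 3037, and 3119 in MDSC replicates 1 to 4, 2716, 2500, 2587, and 3020 in those of MDSC-NP-Blk, and 2291, 2344, 2406, and 2337 in those of CITED. The order was thus the reverse of that of Fth1, and no library of a group overlapped another group. Slc40a1 fell by 0.40 in CITED against MDSC (SE 0.0562, adjusted p = 1.94e-07), by 0.20 in MDSC-NP-Blk against MDSC (SE 0.0558, adjusted p = 0.00413), and by 0.21 in CITED against MDSC-NP-Blk (SE 0.0564, adjusted p = 0.00647). The last of these calls was lost without MDSC-NP-Blk replicate 4 (−0.15, adjusted p = 0.063). Among 10 macrophage markers, 6 fell in CITED against MDSC and 2 rose, beside 22.2% of all genes each, with a median log2 fold change of −2.34. In MDSC-NP-Blk 6 fell and 1 rose, beside 18.6% and 19.9%, with a median of −1.19. The 2 that rose in CITED were Csf1r, by 1.00, and Adgre1, by 0.24 (adjusted p = 1.45e-19 and 0.00234). The summed level of the list was 914 to 965 CPM in MDSC, 969 to 1080 with the blank particle, and 1030 to 1080 in CITED. Csf1r alone went from 518 to 815 and 857 CPM, whereas C1qa went from 25.6 to 7.13 and 1.27 and Mrc1 from 82.7 to 15.0 and 9.74. Spic, which marks iron-recycling macrophages, was below 1 CPM in each group. The part of these cells in the Slc40a1 and Hmox1 values was not tested. Erythroid markers summed to 2.62 to 4.96 CPM, with Slc4a1 at 0 in all libraries. Mast cell and basophil markers summed to 464 to 500 CPM in MDSC, 442 to 484 with the blank particle, and 229 to 248 in CITED. In the fits, which use TMM factors, 3 of these 5 markers rose in MDSC-NP-Blk against MDSC, beside 19.9% of all genes, and 0 fell. All 5 fell in CITED against MDSC, beside 22.2%. Dendritic cell markers summed to 36.2 to 43.3 CPM over all groups, and lymphocyte markers to 2.25 to 8.07.

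Levels per length set the 10 genes on 1 scale, with library sizes multiplied by the TMM factor. In MDSC the order was Fth1 at 6295 ± 226 CPM per kilobase (SD, n = 4), Hmox1 at 137.5 ± 5.19, Txnrd1 at 64.4 ± 0.985, Nfe2l2 at 52.8 ± 2.79, Slc40a1 at 36.3 ± 0.705, Slc7a11 at 23.5 ± 1.71, Gclm at 22.9 ± 0.878, Srxn1 at 8.88 ± 0.455, Gclc at 7.08 ± 0.412, and Nqo1 at 5.52 ± 0.559. Of these neighbors, Slc7a11 and Gclm overlapped between libraries and the others did not. In CITED, Slc7a11 stood at 52.0 ± 0.916, above Slc40a1 at 27.5 ± 0.551, and Nqo1 at 13.6 ± 1.13 overlapped with Srxn1 at 14.0 ± 0.446. Gclc was the lowest of the 10 in both particle groups, at 4.86 ± 0.336 in MDSC-NP-Blk and 5.35 ± 0.339 in CITED.

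Within MDSC-NP-Blk, several of these genes followed the pairs of libraries. Nfe2l2, Slc7a11, Srxn1, Txnrd1, and Gclc were higher in replicates 2 and 3 than in replicates 1 and 4, and Hmox1, Slc40a1, and Fth1 were lower there. The highest library exceeded the lowest 1.4-fold for Slc7a11, 1.36-fold for Nfe2l2, 1.28-fold for Srxn1, and 1.25-fold for Txnrd1, but 1.03-fold for Gclm. The rank correlation between transcript length and expression relative to the mean, over 10543 genes, was −0.422 and −0.243 in replicates 1 and 4, −0.0468 and 0.0921 in replicates 2 and 3, 0.218 to 0.346 in MDSC, and −0.341 to −0.187 in CITED. After a length correction the highest library still exceeded the lowest 1.29-fold for Slc7a11, 1.34-fold for Nfe2l2, and 1.24-fold for Txnrd1, and the ratio for Fth1 went from 1.14 to 1.03. Whether the pairs come from separate preparations is not stated.

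Fits without a pair were added after the data were seen. The pairs were formed by the likeness of these same libraries, which lowers the spread that the p-values rest on. The adjusted p-values of these fits are therefore too small and serve as description only. With replicates 2 and 3 as the MDSC-NP-Blk group, Nfe2l2 rose over MDSC by 0.59, Slc7a11 by 0.78, and Srxn1 by 0.31, and Txnrd1 differed by 0.01 (adjusted p = 0.918). With replicates 1 and 4 in their place, Nfe2l2 rose by 0.24 and Slc7a11 by 0.31, Srxn1 differed by −0.00499 (adjusted p = 0.983), and Txnrd1 fell by 0.27 (adjusted p = 2.55e-05). In CITED against MDSC-NP-Blk, the choice of pair turned Nfe2l2 from −0.21 (adjusted p = 0.00105) to 0.12 (adjusted p = 0.127), while Slc7a11 rose by 0.37 with replicates 2 and 3 and by 0.83 with replicates 1 and 4. Slc40a1 did not pass in CITED against replicates 2 and 3 (−0.12, adjusted p = 0.158), nor in replicates 1 and 4 against MDSC (−0.13, adjusted p = 0.0882).

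**Figure D4:**
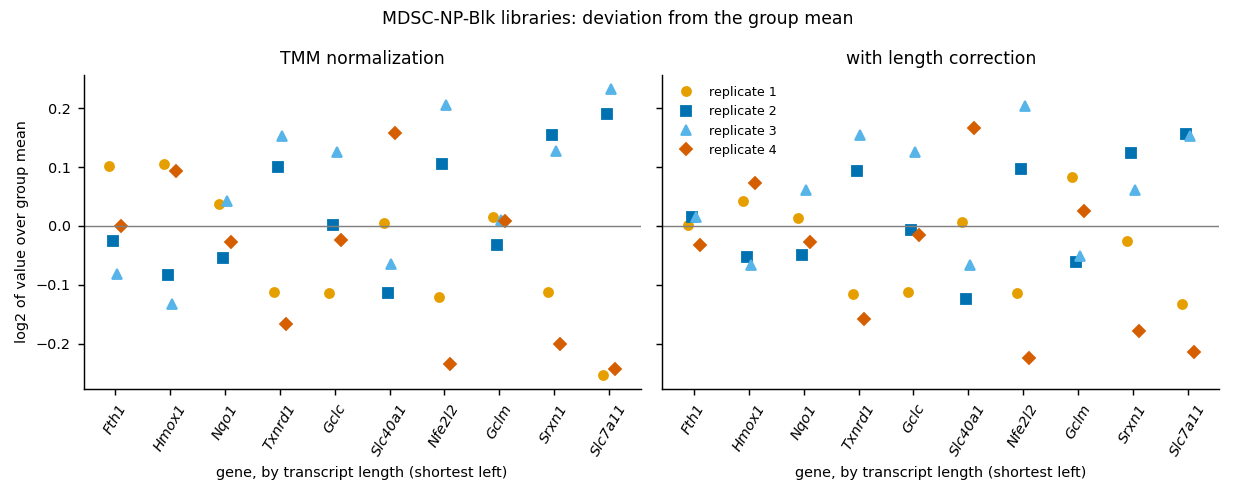
Log2 of each MDSC-NP-Blk library's value over the group mean (vertical axis) for the 10 genes, ordered by transcript length from the shortest at the left, before (left panel) and after (right panel) the length correction. Replicates 2 and 3 (squares and triangles) lie above replicates 1 and 4 (circles and diamonds) for Txnrd1, Nfe2l2, Srxn1, and Slc7a11 in both panels, while the Fth1 points draw together on the right, from 1.14-fold to 1.03-fold between the highest and lowest library.

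The other genes of these pathways were counted from lists. For each list, the shares of all genes that rose and fell are 22.2% and 22.2% in CITED against MDSC, 19.9% and 18.6% in MDSC-NP-Blk against MDSC, and 10.5% and 11.4% in CITED against MDSC-NP-Blk, and the medians of all genes are −0.0519, −0.0274, and 0.0 in this order. These shares include genes at low counts and are lower than those over the 12379 genes of the stricter filter. Of 8 Nrf2 regulators, 6 rose and 0 fell in CITED against MDSC, 5 rose and 0 fell in MDSC-NP-Blk against MDSC, and 4 rose and 0 fell in CITED against MDSC-NP-Blk, with median log2 fold changes of 0.528, 0.335, and 0.137. The list joins positive and negative regulators, and Bach1, a repressor that competes with Nrf2 at AREs, was among those that rose in CITED, by 0.47 (adjusted p = 7.25e-08). Bach1, Cul3, and Keap1 are named outside the rule. Sqstm1, the autophagy receptor p62 that sequesters Keap1, rose from 6124 ± 206 normalized counts in MDSC to 12139 ± 170 with the blank particle and 16745 ± 122 in CITED (SD, n = 4). Its log2 fold change was 1.45 in CITED (adjusted p = 7.64e-24) and 0.99 in MDSC-NP-Blk (adjusted p = 5.72e-19). Maff, a small Maf partner, rose by 1.39 in CITED (adjusted p = 3.61e-17) and 1.31 in MDSC-NP-Blk (adjusted p = 5.71e-16), and its difference between the particle groups was 0.08 (adjusted p = 0.471). Cul3, the scaffold of the ligase that Keap1 serves, had −0.14 in CITED against MDSC-NP-Blk (adjusted p = 0.0761). Counted at an unadjusted p under 0.05, the regulators below 0 numbered 0, 0, and 1 (Cul3) in the 3 comparisons. Keap1 had log2 fold changes of 0.02 in CITED (adjusted p = 0.834) and −0.02 in MDSC-NP-Blk (adjusted p = 0.809).

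Of 21 other Nrf2 targets tested, 12 rose and 3 fell in CITED against MDSC, 10 rose and 1 fell in MDSC-NP-Blk against MDSC, and 10 rose and 1 fell in CITED against MDSC-NP-Blk, with medians of 0.472, 0.224, and 0.21. Blvrb, a flavin and biliverdin reductase, rose in all 3 comparisons, by 1.43 (CITED) and 0.72 (MDSC-NP-Blk) over MDSC and by 0.70 between them (adjusted p = 3.44e-12 or lower). Prdx1, a peroxiredoxin that Srxn1 repairs, rose from 20064 ± 542 normalized counts in MDSC and 21947 ± 1061 in MDSC-NP-Blk to 39740 ± 3230 in CITED. Mgst1, a membrane glutathione transferase, rose by 0.99 in CITED and 1.02 in MDSC-NP-Blk, and its difference between the particle groups was −0.03 (adjusted p = 0.782). The 4 pentose phosphate genes on the list did not move alike. Taldo1, transaldolase, rose by 0.90 and 0.69 against MDSC, and Pgd, named outside the rule, rose by 0.39 and 0.32 (adjusted p = 8.87e-10 and 9.19e-08). G6pdx fell by 0.26 in CITED and by 0.19 in MDSC-NP-Blk (adjusted p = 9.16e-05 and 0.00354). Tkt fell by 0.17 in CITED (adjusted p = 5.52e-04) and differed by 0.08 in MDSC-NP-Blk (adjusted p = 0.101).

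Of 20 other antioxidant enzyme genes, 15 rose and 1 fell in CITED against MDSC, 14 rose and 2 fell in MDSC-NP-Blk against MDSC, and 6 rose and 2 fell in CITED against MDSC-NP-Blk, with medians of 0.482, 0.285, and 0.114. Sod2, the mitochondrial superoxide dismutase, rose by 1.22 in CITED and 1.07 in MDSC-NP-Blk. Txnip, which binds and inhibits thioredoxin, rose by 0.75 in CITED and 1.03 in MDSC-NP-Blk and was lower in CITED than in MDSC-NP-Blk by a log2 fold change of −0.28 (adjusted p = 2.28e-05). Txnrd3, a thioredoxin-glutathione reductase, fell by 0.92 in CITED (adjusted p = 0.00164) at a low level, from 99.6 ± 19.6 to 52.7 ± 4.88 normalized counts. Prdx4, a peroxiredoxin of the endoplasmic reticulum, fell by 0.30 in MDSC-NP-Blk (adjusted p = 0.0208).

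Of 31 other iron and heme genes tested, 13 rose and 8 fell in CITED against MDSC, 10 rose and 9 fell in MDSC-NP-Blk against MDSC, and 9 rose and 7 fell in CITED against MDSC-NP-Blk, with medians of −0.0519, −0.0633, and 0.14. The 8 of 31 that fell in CITED against MDSC are near the share over all genes, and the median there equaled that of all genes. Tfrc, the transferrin receptor for iron uptake, whose mRNA is stabilized by iron regulatory proteins when iron is scarce, fell from 5972 ± 217 normalized counts in MDSC to 2442 ± 103 with the blank particle and 1013 ± 80.3 in CITED. Its log2 fold changes were −2.56 (adjusted p = 6.24e-27), −1.29 (adjusted p = 3.79e-19), and −1.27 from MDSC-NP-Blk to CITED (adjusted p = 7.14e-18). Fbxl5, the iron-sensing ligase that removes iron regulatory protein 2, rose by 0.92 in CITED and 0.26 in MDSC-NP-Blk. Ncoa4, the receptor that delivers ferritin to autophagy, fell by 0.59 in CITED and by 0.21 in MDSC-NP-Blk. Steap3, an endosomal ferrireductase, fell by 0.98 in CITED and by 1.30 in MDSC-NP-Blk. Trf, transferrin, rose by 0.67 and 0.89, and Pcbp2, an iron chaperone, by 0.63 and 0.82, and both were lower in CITED than in MDSC-NP-Blk (−0.22 and −0.19, adjusted p = 0.00351 and 0.00187).

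Slc7a11 is also a target of the stress factor ATF4, so 10 genes of that program were counted beside it. Of these, 4 rose and 5 fell in CITED against MDSC, 5 rose and 4 fell in MDSC-NP-Blk against MDSC, and 1 rose and 1 fell in CITED against MDSC-NP-Blk, with medians of −0.152, −0.00305, and −0.101. The amino acid synthesis genes Asns and Psat1 fell in CITED by 1.19 and 1.60 and in MDSC-NP-Blk by 1.04 and 1.46, while Ddit3, which encodes the stress factor CHOP, rose by 0.93 and 0.77. Sesn2, a sestrin, rose by 0.34 and 0.33. Ddit4, an inhibitor of mTOR signaling, rose by 0.66 in MDSC-NP-Blk and fell by 0.81 in CITED against MDSC-NP-Blk (adjusted p = 1.81e-08). None of the lists was tested as a set.

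**Figure D5:**
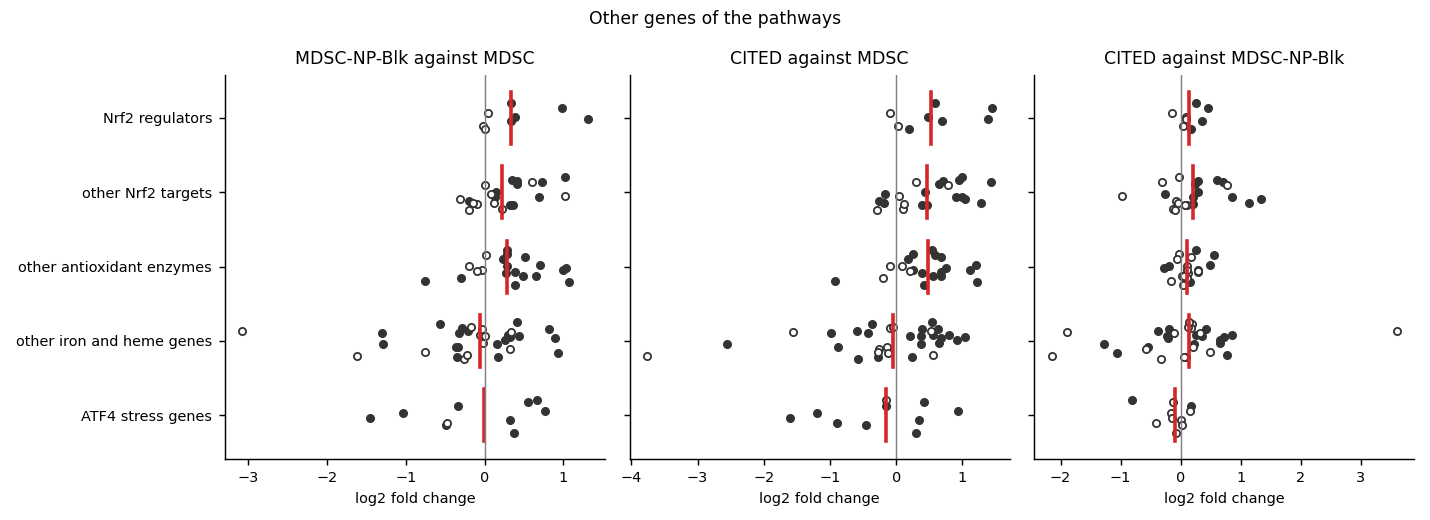
Log2 fold changes (horizontal axis) of the genes on 5 lists in the 3 comparisons, 1 point per gene, filled where the adjusted p is under 0.05, with red bars for the list medians. The Nrf2 regulators have a median of 0.528 in CITED against MDSC, and the iron and heme genes spread to either side of 0, with a median of −0.0519.

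For all of these genes except Hmox1 and Nqo1, another annotated gene overlaps the locus, mostly a noncoding RNA on the opposite strand. Salmon assigns reads to spliced transcripts, so the words of 31 bases that a canonical transcript shares, on either strand, with transcripts of such a gene were counted. They were 34.3% of the words of Fth1, 6.99% for Nfe2l2, 0.7% for Srxn1, 0.25% for Gclm, and 0.0% for Gclc, Slc7a11, Txnrd1, and Slc40a1. The counting is not stated to use strand, so for Fth1 and Nfe2l2 reads from the shared stretch and from the opposite strand cannot be told apart.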

How the data were processed

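RNA was enriched for poly(A) and sequenced in pairs. Per the methods and the submitters' processing notes, the authors quantified transcripts of GENCODE for GRCm39 (release not given in the sources used here) with Salmon 1.4.0 and summed them per symbol in R 4.3.2. They deposited whole-number counts, neither normalized nor filtered. Groups and replicate numbers came from the titles. An entry with an empty symbol held no counts and was dropped. After symbols under 2 counts in total were removed, tests ran in R 4.3.3 with edgeR 4.0.16 (TMM, glmQLFit, glmQLFTest, group as the only term, robust off), and p-values were adjusted after Benjamini and Hochberg over all genes. The biological coefficient of variation was 9.03%. Labels and methods call the replicates biological and independent; whether each is a separate animal or culture is not said. CPM per kilobase used the canonical transcript of GENCODE release 39 and library sizes multiplied by the TMM factor. The CPM of markers used library sizes alone. The length correction fitted a loess curve (span 0.5) in each library. Ratios were compared by exact permutation.

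The 10 genes and the lists were chosen with earlier results of these data known. Text names all 10, and from each list the 2 genes with the lowest p in each direction among those with an adjusted p under 0.05 in either comparison with MDSC. Alternatives comprised DESeq2 1.42.0, 3 other scalings, looser and stricter filters, fits to the 8 libraries compared, a replicate block, the length correction, and leaving out libraries. Depth, 20604809 to 37855478 counts, sets the floor of 3 counts. Figures and tables used Python 3.11.15, numpy 2.4.6, pandas 2.3.3, scipy 1.17.1, and matplotlib 3.10.9. The fit was tested on simulated data.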

Additional observations from a re-analysis of the deposited data

Results flagged for a closer look

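In 2 of the 30 groups examined, 10 genes in 3 groups of 4 libraries, 1 library lay farther from the others than Dixon's 95% criterion allows, and chance gives about 1 in 20. Hmox1 had 5045 normalized counts in MDSC replicate 3, with the nearest library at 5405 and a gap of 0.849 of the range. Gclm had 3520 normalized counts in MDSC-NP-Blk replicate 2, with the nearest at 3622 and a gap of 0.874 of the range. The gaps are small beside the levels, since the libraries of these groups spanned 1.08-fold and 1.03-fold from lowest to highest.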

How the results depend on the processing

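Of 690 values of the 10 genes under an alternative, 647 kept their direction and side of the threshold, 20 turned direction, 17 lost and 6 gained the call. Of the 20, 18 belong to MDSC-NP-Blk against MDSC. Hmox1 there had −0.00406 with DESeq2, −0.0038 with RLE factors, −0.256 with library sizes alone, −0.0092 with the 8 libraries, −0.132 with the length correction, and −0.1 without MDSC-NP-Blk replicates 1 and 4. Gclm had −0.00181, −0.00113, −0.253, and −0.00626 under the first 4 of these and −0.00286 under the last. Srxn1 had −0.0938 with library sizes alone and −0.00499 without replicates 2 and 3, and Txnrd1 had 0.010 without replicates 1 and 4. Other values without a pair kept the direction of the main fit. They were −0.27 for Txnrd1 and 0.092 for Hmox1 without replicates 2 and 3, and 0.31 for Srxn1 without replicates 1 and 4. With 1 library left out, Hmox1 ranged from −0.0324 to 0.0453 and Gclm from −0.00825 to 0.0356. For CITED against MDSC-NP-Blk, Nfe2l2 ranged from −0.125 to 0.0188 and had −0.21 without replicates 1 and 4 and 0.12 without replicates 2 and 3. With library sizes alone, 2 rather than 3 genes were differentially expressed in CITED against MDSC. The count of these genes that fell in MDSC-NP-Blk went from 2 to 5 with library sizes alone, where Hmox1, Gclm, and Txnrd1 were added. The count that fell in CITED against MDSC-NP-Blk ranged from 0 to 1 with 1 library left out, and was 0 without MDSC-NP-Blk replicate 4. Txnrd1 fell in MDSC-NP-Blk without replicate 2 (−0.15, adjusted p = 0.0443) or replicate 3 (−0.17, adjusted p = 0.00945). The causes were not tested.

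The replicate block changed no call of these genes, with 8 higher and 2 lower in CITED against MDSC. Deviations of libraries with the same number correlated by −0.0393 to 0.0745 between CITED and MDSC over 10556 genes and by at most 0.14 in the other comparisons, so the samples share a number and the fit is not a paired one. Counting error alone gives a coefficient of variation of 0.145% to 5.05% for a gene in a group, and in 3 of 30 groups (Nqo1 and Gclm in MDSC-NP-Blk and Slc40a1 in CITED) the observed spread was no larger than that.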
